A study of Mus musculus with 14 samples.

Results

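Crh, Crhbp, Crhr1 and Hsd11b1 are 4 of the 255 genes counted in a spatial transcriptomics study of the mouse hippocampus. They were chosen by name, and each is described across the 3 annotated classes of excitatory neuron and the 4 groups of the study, with the section of 1 sample as the unit. In MERFISH, single RNA molecules are identified in a tissue section by repeated rounds of fluorescent hybridisation, and the transcripts inside each outlined cell are counted. The table held 13602 cells from 14 samples, all annotated as excitatory neurons of the dentate gyrus (DG, 8561 cells), CA1 (3397 cells) or CA3 (1644 cells).

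The samples were sagittal sections of fresh-frozen hemibrains of mice. Ctl-Veh (n = 5) were controls given vehicle, and Ctl-Rz (n = 3) were controls given RZ, an agent whose abbreviation the labels do not spell out. Ir-Veh (n = 4) were mice given radiation (RT in the labels, cranial in the title) and vehicle, and Ir-Rz (n = 2) were mice given radiation and RZ. The labels give no strain, age, sex, radiation dose, RZ dose or interval to tissue collection. Nothing in the labels says whether samples of 1 group came from separate animals, so the p-values below measure the spread between these samples, part of which may be technical. The number in a sample's name is its assay number in the deposited cell table, and each of the 7 numbers belongs to 1 imaging run that held 2 samples of different groups. Samples are called here by group and run number.

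CRH, encoded by Crh, is the peptide that starts the hormonal stress response from the hypothalamus, and within the hippocampus it is made by local interneurons and acts as a neuromodulator. CRH-binding protein, encoded by Crhbp, holds the peptide and limits how much of it reaches receptors. CRHR1, encoded by Crhr1, is its main receptor on forebrain excitatory neurons and signals through stimulatory G proteins, cyclic AMP and CREB. Hsd11b1 encodes the enzyme 11β-HSD1, which regenerates active glucocorticoid from its inactive form inside cells, next to the glucocorticoid receptors in which the stress axis ends.

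The 4 genes had distinct patterns over the hippocampal fields. Crhr1, the receptor, was the one counted in a large share of the neurons. Its count per cell was higher in CA1 than in DG in 14 of 14 samples, as for 32.2% of all genes. Hsd11b1, the enzyme, was highest in CA3, and within every field it was also higher in the few outlines that held several transcripts of the astrocyte gene Gja1. Cells of a small cluster rich in Hsd11b1 were not left out of this comparison. Crh and Crhbp were sparse in all fields. For Crh the order of DG and CA1 depended on the scale. CA1 was above DG in 8 of 14 samples by counts per cell and in 1 of 14 after scaling for depth. No gene passed the test between groups, including these 4. In the DG, Crhr1 was lower in both Ir-Rz samples than in all 4 Ir-Veh samples, as were 3.92% of all genes. The log2 difference of −0.96 ± 0.37 (SE) did not pass (edgeR adjusted p = 0.997).

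The total count of a sample over the measured genes was 137786 to 434127, with a median of 252508, from 413 to 1449 cells. The classes held 199 to 1001 DG cells, 115 to 370 CA1 cells and 57 to 185 CA3 cells per sample. The median cell held 204 counts in DG, 364 in CA1 and 311 in CA3, so levels are given below both as counts per cell and as CPM. CPM is the count scaled to the total over the measured genes, which adjusts for the difference in depth. CPM of single genes by class or by sample also used the scaling factors described under processing. The marker medians that follow did not. The annotated classes carried their own markers: the measured DG granule cell markers had a median of 14882 CPM in DG against 439 in CA1 and 653 in CA3, the CA1 marker 16699 in CA1 against 1303 in DG and 235 in CA3, and the CA3 marker 3352 in CA3 against 734 in DG and 317 in CA1.

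Of these 4 members of the axis, Crh, Crhbp and Hsd11b1 lay in DG in the range where transcripts of other cells also fall into neuron outlines. The measured markers of microglia, oligodendrocytes and vessels, 15 genes that these neurons should largely lack, had 0.0126 to 0.0740 counts per DG cell, 0.0122 to 0.0905 per CA1 cell and 0.0170 to 0.112 per CA3 cell. Of these 15 markers, 7 lay above Crh, 7 above Crhbp and 6 above Hsd11b1 in DG, while 0 lay above Crhr1. In CA1, 9 lay above Crh, 4 above Crhbp and 3 above Hsd11b1, while 0 lay above Crhr1. In CA3, 10 lay above Crh and 6 above Crhbp, while 0 lay above Hsd11b1 or Crhr1. The 15 markers left out astrocyte genes. Of those, Gja1 and Gfap had 0.313 and 0.243 counts per CA3 cell, above the 0.149 of Hsd11b1. Aqp4, Aldh1l1 and Agt had 0.103, 0.104 and 0.0411. In DG, Gfap, Gja1, Aqp4, Aldh1l1 and Agt had 0.307, 0.225, 0.0757, 0.0592 and 0.0372, beside 0.313 for Crhr1. Probe sets differ between genes, so this sets the members beside a background and does not rank their expression.

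The ligand Crh was found in 539 of the 13602 cells (3.96%), with 562 counts in all and at most 2 in a cell. Its level per cell was 0.0406 ± 0.0166 in DG (SD, n = 14 samples, here and for the other class levels), 0.0456 ± 0.0294 in CA1 and 0.0519 ± 0.0297 in CA3. These 3 levels differed by less than their spread over samples, and CA1 was above DG in 8 of 14 samples. As CPM, Crh stood at 172 ± 56.8 in DG, 124 ± 66.0 in CA1 and 136 ± 68.8 in CA3, and CA1 was then above DG in 1 of 14 samples, so the order of CA1 and DG depended on the scale. The measured inhibitory neuron genes were compared within each field between cells that held Crh and cells that did not. Their summed level was 1.06 times as high in the 308 DG cells with Crh, 1.04 times in the 147 CA1 cells and 0.976 times in the 84 CA3 cells. Gad1, which encodes an enzyme that makes GABA, stood at 1.1004 times in DG, 0.883 times in CA1 and 1.68 times in CA3, where it was higher in 10 of 14 samples on 27 counts. Gad2, which encodes the other such enzyme, stood at 1.30, 1.19 and 1.07 times. The cholecystokinin gene Cck made up most of the summed level in CA1 and CA3, with means of 13194 and 12184 CPM. In DG the largest part was Gad1, with a mean of 5089 CPM. Here and below, the sum therefore cannot tell whether a cell is an interneuron. Interneurons, the cells known to make CRH in the hippocampus, are not among the annotated classes.

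The binding protein gene Crhbp was found in 658 cells (4.84%), with 685 counts and at most 6 in a cell. It stood at 0.0407 ± 0.0195 counts per cell in DG, 0.0751 ± 0.0335 in CA1 and 0.0744 ± 0.0433 in CA3. CA1 was above DG in 12 of 14 samples, by 1.84 times on the means, whereas CA3 was above CA1 in 7 of 14. As CPM the levels were 168 ± 47.6, 218 ± 78.4 and 190 ± 85.5, with CA1 above DG in 10 of 14 samples and a ratio of 1.30. Thinned to 100 counts per cell, 2.01% of DG cells and 1.40% of CA1 cells held Crhbp, with CA1 higher in 4 of 14 samples, and thinned to 200 counts the shares were 3.12% and 3.61%, with CA1 higher in 9 of 14, so the order of these fields depended on the scale for Crhbp too. In cells with Crhbp the summed inhibitory neuron genes were 1.04 times as high as in the other cells of the field in DG (312 cells), 1.05 times in CA1 (230 cells) and 0.962 times in CA3 (116 cells). Gad1 stood at 0.979 times in DG and 1.18 times in CA3, and at 1.77 times in CA1, where it was higher in 10 of 14 samples. In the 13 CA1 cells with 2 or more Crhbp counts Gad1 was 10.1 times as high, on 24 counts and in 4 of 9 samples. The activity-induced gene Arc was 1.82 times as high in the DG cells with Crhbp (higher in 7 of 14 samples), 1.202 times in the CA1 cells (9 of 14) and 1.13 times in the CA3 cells (7 of 14).

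The receptor gene Crhr1 was found in 4361 cells (32.1%), with 6603 counts and at most 9 in a cell. In DG the lowest sample had 0.115 counts per cell, the median sample 0.313 and the highest 0.485, with a mean of 0.313 ± 0.0961. In CA1 the samples ran from 0.475 over a median of 0.813 to 1.23, with a mean of 0.821 ± 0.221. In CA3 they ran from 0.447 over 0.719 to 1.02, with a mean of 0.689 ± 0.183. Every sample had more Crhr1 per CA1 cell and per CA3 cell than per DG cell, by 2.62 and 2.20 times on the means, although the highest DG sample still reached the lowest CA1 and CA3 samples. CA3 was above CA1 in 3 of 14 samples. The log2 ratio of CA3 to CA1 was −0.25 on the means, and its SD over samples was 0.39. Across all genes, 32.2% were higher in CA1 than in DG in every sample by counts per cell and 25.9% were higher in CA3 than in DG, so this order alone is common in the table.

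The difference was smaller on the scale that adjusts for depth. As CPM, Crhr1 stood at 1378 ± 442 in DG, 2468 ± 734 in CA1 and 1934 ± 637 in CA3, and the CA1 level was 1.79 times the DG level, higher in 14 of 14 samples. At this scale 14.9% of all genes were higher in CA1 than in DG in every sample, and the median gene had a log2 ratio of 0.018. The CA3 level was 1.40 times that of DG, higher in 13 of 14 samples, with 11.8% of genes higher in CA3 in every sample. CA3 was above CA1 in 2 of 14 samples on this scale. Crhr1 was counted in 23.7% ± 5.70 of DG cells, 47.5% ± 7.96 of CA1 cells and 43.6% ± 7.26 of CA3 cells. After each cell was thinned to 100 counts, with 1385, 253 and 171 shallower cells left out, the shares were 12.05%, 19.7% and 21.5%, which kept DG lowest and left CA1 and CA3 in the opposite order. Thinned to 200 counts, with 4131, 755 and 477 cells left out, they were 22.2%, 32.8% and 31.6%, with CA3 above CA1 in 7 of 14 samples.

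The enzyme gene Hsd11b1 was found in 808 cells (5.94%), with 875 counts and at most 4 in a cell. Its level was lowest in DG, intermediate in CA1 and highest in CA3. In DG the samples ran from 0.0172 over a median of 0.0403 to 0.0911 counts per cell, with a mean of 0.0436 ± 0.0206. In CA1 the mean was 0.0853 ± 0.0350, and in CA3 it was 0.149 ± 0.0609, with samples from 0.0649 over 0.140 to 0.250. CA3 was above DG in 13 of 14 samples and above CA1 in 12 of 14, by 3.41 and 1.74 times on the means, and the ranges of all 3 fields overlapped. The order was the same as CPM, at 184 ± 65.2 in DG, 253 ± 108 in CA1 and 405 ± 145 in CA3. The CPM ratio of CA3 to DG was 2.20, and 27 of the 255 genes had a higher one. Thinned to 100 counts, 1.85% of DG cells, 2.38% of CA1 cells and 5.28% of CA3 cells held a transcript, compared with 4.01%, 8.05% and 13.1% as counted. Thinned to 200 counts the shares were 3.96%, 3.71% and 8.58%, with CA1 above DG in 7 of 14 samples, so CA3 stayed highest and the order of DG and CA1 was lost. For none of the 4 genes were the sample ranges of 2 fields apart on either scale, whereas they were apart for 12.2% of all genes between CA1 and DG, 11% between CA3 and DG and 5.49% between CA3 and CA1 by counts per cell, and for 14.1%, 10.2% and 7.84% as CPM.

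**Figure D1:**
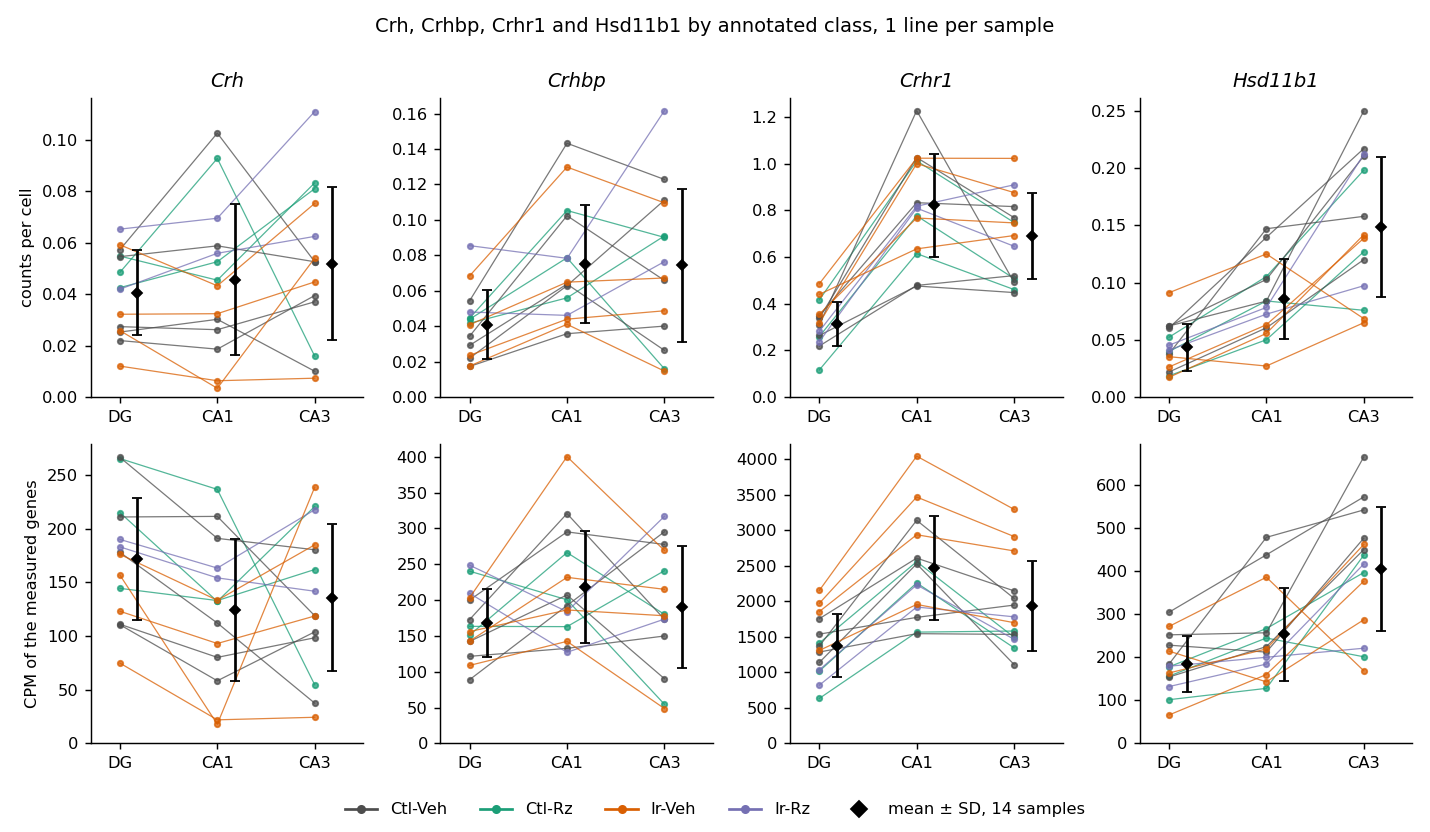
Levels of Crh, Crhbp, Crhr1 and Hsd11b1 (columns) by annotated class, as counts per cell (upper row) and as CPM of the measured genes (lower row). Each line is 1 of the 14 samples, coloured by group, and black diamonds with bars are means ± SD over samples. Crhr1 lines climb from DG to CA1 in every sample on both scales, as for 32.2% and 14.9% of all genes. Hsd11b1 is highest in CA3 in most samples.

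The authors' Leiden clusters gave a further view, as a description, since the clusters were made from the genes of these cells. Crhr1 stood at 1315 CPM in cluster 0 (6033 cells), the main DG cluster, at 2130 in cluster 1 (3257 cells), the main CA1 cluster, and at 2409 in cluster 8 (1202 cells), the main CA3 cluster. Cluster 3 (3048 cells), whose cells had a median of only 96 counts, lay between them at 1632 CPM. Hsd11b1 followed the same order at 176, 233 and 373 CPM in clusters 0, 1 and 8, with 254 in cluster 3. For Crhr1 the main CA3 cluster thus lay above the main CA1 cluster, whereas by class its CPM was 2468 in CA1 and 1934 in CA3. Class CPM were scaled over the profiles of sample and class and cluster CPM were not, and the cells also differ. The part of each in this change of order was not tested. Crh was lowest in cluster 1, at 110 CPM against 171 to 185 in the other 3, and Crhbp lay between 161 and 219 CPM in all 4. Cluster 6, a group of 24 cells, held 20 counts of Hsd11b1, or 4759 CPM, and 45.8% of its cells had a transcript, whereas it held 0 counts of Crh and Crhbp, which allows up to 714 CPM of each (3 counts). Leaving out these 24 cells lowered the astrocyte gene Gja1 from 835 to 770 CPM in the cells without a Crh count.

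A small set of DG cells was far richer in Crhr1 than the rest. The 48 cells annotated as DG but placed in cluster 8 had 2.33 Crhr1 counts per cell, or 6218 CPM, against 1304 CPM in the DG cells of cluster 0. The level was higher than in cluster 0 of the same sample in 13 of the 14 samples, each of which held 1 to 9 such cells. The exception was Ctl-Rz 8, whose single cell held no Crhr1 count. Of their 10 nearest neighbours on the section, drawn from the 3 annotated classes alone, 95.6% were DG cells and 4.38% were CA3 cells. Around the DG cells of cluster 0 these shares were 99.9% and 0.0883%. Around the CA3 cells of cluster 8 they were 2.44% and 97.1%. The 48 cells thus lay mostly among DG cells, with a larger share of CA3 neighbours than the DG cells of cluster 0. Cckbr, which encodes a receptor for cholecystokinin and gastrin, stood at 3887 CPM in these cells against 126 in the DG cells of cluster 0, and the calcium-binding protein gene Calb2 at 1333 against 141. The metabotropic glutamate receptor gene Grm2 was lower in them, at 1499 against 14521 CPM. Cluster membership was set by such genes, so these levels describe the cells and are not a test.

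DG cells were also picked by their Crhr1 count alone. There were 115 DG cells with 3 or more Crhr1 counts, and 6560 with 0. Of the 115 cells, 19 were also among the 48 cells of cluster 8, so the sets are not independent. Cckbr was 11.5 times as high in the former and higher in 9 of the 13 samples that held such cells, and Calb2 was 2.89 times as high, in 7 of 13. Arc was 5.87 times as high, in 13 of 13 samples, the muscarinic receptor gene Chrm4 was 5.09 times as high, in 9 of 13, and the cannabinoid receptor gene Cnr1 was 4.004 times as high, in 11 of 13. The summed inhibitory neuron genes were 1.39 times as high and the astrocyte gene Gja1 was 1.05 times as high. With 1 or more Crhr1 counts as the criterion (2001 DG cells), Cckbr was 2.62 times as high, in 11 of 14 samples, and Arc 1.81 times as high, in 13 of 14. These are ratios of CPM of the counts summed over cells, in which each set is scaled to its own total.

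Hsd11b1 was counted more often in outlines that also held astrocyte transcripts. The 808 cells with Hsd11b1 had 2.58 times the Gja1 level of the other cells, higher in 12 of 14 samples. They also had 1.77 times the Apoe level, a lipoprotein gene abundant in astrocytes, and 1.64 times the summed level of the 5 measured astrocyte markers, whereas the summed microglial markers stood at 1.09 times. In the 53 cells with 2 or more Hsd11b1 counts, Gja1 was 10.5 times as high, in 9 of 12 samples. Without cluster 6, 48 cells remained and the ratio was 6.65. The share of transcripts that came from astrocytes lying over or under a neuron was not tested.

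Seen from the other side, Hsd11b1 was higher in outlines with more Gja1 counts. Among DG cells it stood at 157 CPM in the 7480 cells with no Gja1 count, at 381 CPM in the 1081 cells with 1 or more and at 1224 CPM in the 112 cells with 3 or more. In CA1 the values were 213, 230 and 687 CPM, and in CA3 they were 397, 527 and 1581 CPM. The difference between the fields was present in cells with no Gja1 count, at 397 CPM in CA3 against 157 CPM in DG. Crhr1 in DG stood at 1390, 1351 and 1253 CPM in the same 3 sets. The topmost sets were small, with 40 cells in CA1 and 38 in CA3, and 14.3% of all cells had a Gja1 count. The 24 cells of cluster 6 were not left out of these sets. They held 20 Hsd11b1 counts, beside 74 in all 190 cells with 3 or more Gja1 counts.

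**Figure D2:**
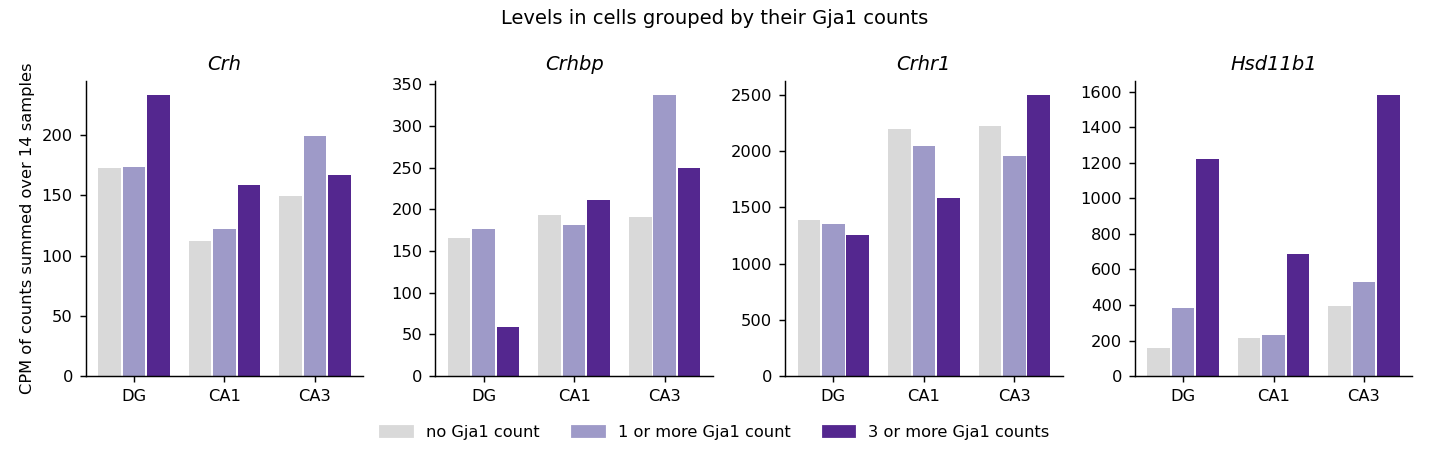
CPM of the counts summed over all samples for each gene, in DG, CA1 and CA3 cells with no Gja1 count (grey), with 1 or more (light purple) and with 3 or more (dark purple, a subset of the light purple cells); there are no error bars because counts were pooled. Hsd11b1 climbs from 157 to 1224 CPM in DG and from 397 to 1581 CPM in CA3, while Crhr1 in DG stays between 1253 and 1390 CPM.

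The 4 genes were also set against each other within the fields. In the cells with Hsd11b1, Crhr1 was 1.02 times the level in the other cells of the field in DG and 1.05 times in both CA1 and CA3. Crhbp was 0.953, 1.03 and 0.909 times in the same order. Crh was 0.987 times in DG, 1.49 times in CA1 and 0.642 times in CA3, where it rested on 16, 20 and 9 counts. In the cells with Crhbp, Crh was 1.27, 1.09 and 1.17 times as high, higher in 9, 5 and 4 of 14 samples.

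The variance of the count over cells, divided by the variance expected from counting at each cell's depth, was 1.32 for Crhr1 in DG, above 16 of the 23 genes of like level, whose median was 1.103. In CA1 it was 1.33, above 9 of 18 with a median of 1.40, and in CA3 it was 1.19, above 10 of 23 with a median of 1.32, so Crhr1 was not more uneven over CA1 or CA3 cells than its peers. For Hsd11b1 it was 1.13 in DG, above 52 of 67 genes, 1.01 in CA1, above 30 of 73, and 1.13 in CA3, above 49 of 66. For Crhbp it was 1.11 in CA1, above 63 of 77, and 0.974 and 0.967 in DG and CA3. For Crh it was 0.955 to 1.06. The coefficient of variation over samples was 26.6% to 30.7% for Crhr1 and 40.8% to 64.5% for the others, over the 3 classes.

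The first comparison asked how radiation changed the genes in mice given vehicle. Crhr1 over all cells stood at 1695, 1406, 1759, 1893 and 2058 CPM in Ctl-Veh 2, 3, 8, 11 and 12. In Ir-Veh 1, 2, 9 and 12 it stood at 2390, 2521, 1519 and 2998 CPM. Of the Ir-Veh samples 3 lay above the whole Ctl-Veh range and Ir-Veh 9 lay inside it. The share of all genes with as many samples outside that range was not counted. The means were 2357 ± 617 and 1762 ± 243 CPM, and the log2 difference was 0.42 ± 0.26 (SE), with a 95% interval of −0.11 to 0.95 (edgeR adjusted p = 0.984 over 255 genes). The sign was the same in DG (0.39 ± 0.27), CA1 (0.38) and CA3 (0.50). Within the 2 runs that held both groups, the Crhr1 log2 difference was 0.57 in run 2 and 0.54 in run 12. The share of all genes higher in Ir-Veh in both runs was not counted.

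Hsd11b1 lay below the whole Ctl-Veh range in 3 of 4 Ir-Veh samples in CA3 and in 2 of 4 over all cells, in a comparison that did not pass the test. How common such counts were over all genes was not determined. Over all cells it stood at 216, 295, 233, 314 and 395 CPM in Ctl-Veh 2, 3, 8, 11 and 12, and at 160, 218, 271 and 203 CPM in Ir-Veh 1, 2, 9 and 12. In CA3 the Ctl-Veh samples stood at 526.01, 635, 510, 691 and 626 CPM and the Ir-Veh samples at 405, 553, 193 and 284 CPM, so that only Ir-Veh 2 reached the Ctl-Veh range. The CA3 difference was −0.83 ± 0.38 with an interval of −1.63 to −0.030 (edgeR adjusted p = 0.999 over 218 genes), and over all cells it was −0.44 ± 0.26. Within runs the CA3 difference was 0.073 in run 2 and −1.14 in run 12, so it did not have 1 sign. The CA3 counts behind these values were 10 to 33 per sample. The summed astrocyte markers in CA3 ran from 1648 to 2806 CPM in Ctl-Veh and from 1579 to 3916 CPM in Ir-Veh, and their part in the difference was not tested.

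Crh over all cells stood at 139, 246, 202, 97.9 and 96.1 CPM in Ctl-Veh 2, 3, 8, 11 and 12, and at 115, 48.5, 164 and 128 CPM in Ir-Veh 1, 2, 9 and 12, with overlapping ranges and a log2 difference of −0.47 ± 0.34. In CA1 the means were 117 ± 60.2 and 57.0 ± 47.2 CPM, a difference of −1.08 ± 0.52 (edgeR adjusted p = 0.999 over 233 genes). The CA1 value rested on few transcripts, with 1 count in Ir-Veh 12 and 2 in Ir-Veh 2, and it was −0.72 without Ir-Veh 2 and −2.16 with the imaging run as a block (edgeR adjusted p = 0.356). Crhbp had means of 178 ± 48.2 and 181 ± 62.7 CPM, with a difference of 0.014 ± 0.28. The share of genes called was 0% at each level of this comparison, and edgeR gave 4 genes at an unadjusted p under 0.05 over all cells, 4 in DG, 5 in CA1 and 4 in CA3. DESeq2 also called 0 genes.

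The second comparison asked how RZ changed the genes in irradiated mice. Crhr1 stood at 1426 and 1430 CPM in Ir-Rz 1 and 9, below the 1519 to 2998 CPM of the 4 Ir-Veh samples. The groups did not overlap, as was the case in this direction for 2.75% of all genes. The log2 difference was −0.72 ± 0.34 with an interval of −1.43 to −0.014 (edgeR adjusted p = 0.990). It differed between runs: −0.75 in run 1, which held Ir-Veh 1 at 2390 CPM, and −0.087 in run 9, which held Ir-Veh 9 at 1519 CPM. With the imaging run as a block the fitted difference was −0.42, and with the number of cells in place of the library size it was −0.27.

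The difference was widest in DG. There Crhr1 stood at 1982, 2026, 1363 and 2355 CPM in Ir-Veh 1, 2, 9 and 12 and at 1046 and 915 CPM in Ir-Rz 1 and 9. Both Ir-Rz samples lay below every Ir-Veh sample, and 3.92% of all genes were lower in Ir-Rz than in Ir-Veh with no overlap in DG. The log2 difference was −0.96 ± 0.37 with an interval of −1.73 to −0.20 (edgeR adjusted p = 0.997), and it ranked 3 of 252 genes by p. It was −0.92 in run 1 and −0.57 in run 9, −0.76 in the fit blocked by run (adjusted p = 0.899) and −0.63 when scaled by cell number in place of the library size. In CA1 and CA3 the differences were −0.51 and −0.60, and in CA3 the groups again did not overlap, as for 3.92% of genes.

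Crh was higher in Ir-Rz, at 168 and 191 CPM in Ir-Rz 1 and 9 over all cells, than in the 4 Ir-Veh samples, which reached 164 CPM at most. Genes higher in Ir-Rz with no overlap made up 3.53% of all genes. The difference was 0.66 ± 0.43 with an interval of −0.23 to 1.55, and within runs it was 0.55 in run 1 and 0.22 in run 9. In CA1, where Ir-Veh 2 and 12 held 1 or 2 Crh counts, it was 1.30 ± 0.64 (edgeR adjusted p = 0.996), with group means of 141 ± 5.95 and 57.0 ± 47.2 CPM. With the imaging run as a block it was 0.56. Crhbp stood at 181 and 250 CPM and Hsd11b1 at 191 and 232 CPM in Ir-Rz 1 and 9, inside the Ir-Veh ranges, with differences of 0.23 ± 0.36 and −0.025 ± 0.34. In DG, both Crh and Crhbp lay above the whole Ir-Veh range in the Ir-Rz samples, as did 3.92% of genes, and in CA1 Crh did so, as did 3.53% of genes. The share of genes called was 0% at each level, with 1 gene called in CA3 when Ir-Rz 9 was left out. An unadjusted p under 0.05 was found by edgeR for 2 genes over all cells, 5 in DG, 3 in CA1 and 4 in CA3, and DESeq2 called 0 genes.

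**Figure D3:**
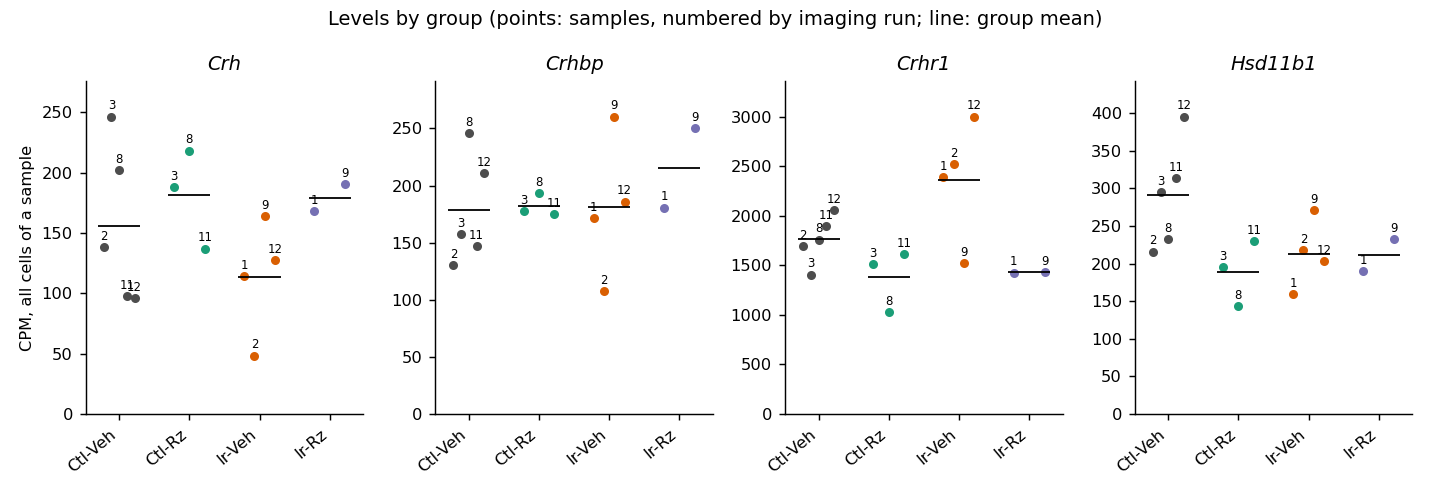
CPM of each gene over all cells, 1 point per sample in the 4 groups, numbered by imaging run, with a line at the group mean. The 2 Ir-Rz samples sit at 1426 and 1430 CPM for Crhr1, below all 4 Ir-Veh samples, as for 2.75% of all genes. The 3 Ctl-Rz samples sit between 144 and 230 CPM for Hsd11b1, where the Ctl-Veh samples run from 216 to 395 CPM.

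The third comparison asked how RZ changed the genes in control mice. Hsd11b1 stood at 196, 144 and 230 CPM in Ctl-Rz 3, 8 and 11, against 216 to 395 CPM in Ctl-Veh. Ctl-Rz 11 alone reached into the Ctl-Veh range, and the means were 190 ± 43.3 and 291 ± 71.5 CPM. The log2 difference was −0.60 ± 0.29 with an interval of −1.20 to 0.0064 (edgeR adjusted p = 0.989), in the fit blocked by run it was −0.57 (adjusted p = 0.743), and scaled by cell number it was −0.34. Within the 3 runs that held both groups, the Hsd11b1 log2 differences were −0.59 in run 3, −0.70 in run 8 and −0.45 in run 11. The share of all genes that were lower with RZ in each of these runs was not counted. In CA3 the 3 Ctl-Rz samples, at 216, 468 and 439 CPM, lay below all 5 Ctl-Veh samples (−0.67 ± 0.43), as did 0.784% of genes in this direction. The summed astrocyte markers over all cells were 2644 to 2981 CPM in Ctl-Rz and 2100 to 2796 CPM in Ctl-Veh, ranges that overlapped. In cells without a Gja1 count the Hsd11b1 difference was −0.55.

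Crhr1 had a difference of −0.34 ± 0.28 over all cells, at 1515, 1030 and 1614 CPM in Ctl-Rz 3, 8 and 11, with only Ctl-Rz 8 below the Ctl-Veh range. In DG it stood at 1027, 589 and 1317 CPM in the same samples and at 1588, 1330, 1130, 1373 and 1867 CPM in Ctl-Veh 2, 3, 8, 11 and 12, a difference of −0.58 ± 0.30 (edgeR adjusted p = 0.994). Within runs this DG difference was −0.37 in run 3, −0.94 in run 8 and −0.060 in run 11. Taken with both irradiated pairs, DG Crhr1 was lower in the RZ sample of the run in 5 of 5 runs, as were 4.71% of all genes. DG Crhbp was higher in the RZ sample in 5 of 5 runs, by 0.35 and 0.39 in runs 1 and 9 and by 0.16, 0.17 and 0.66 in runs 3, 8 and 11, and 4.71% of all genes were higher in every one of these runs. Crh (0.19 ± 0.36) and Crhbp (0.016 ± 0.31) overlapped between the control groups at every level. The share of genes called was 0% at each level. An unadjusted p under 0.05 was found by edgeR for 6 genes over all cells, 4 in DG, 2 in CA1 and 6 in CA3. DESeq2 called 0 genes, and the fit with the run as a random effect called 1 over all cells and 2 in DG.

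**Figure D4:**
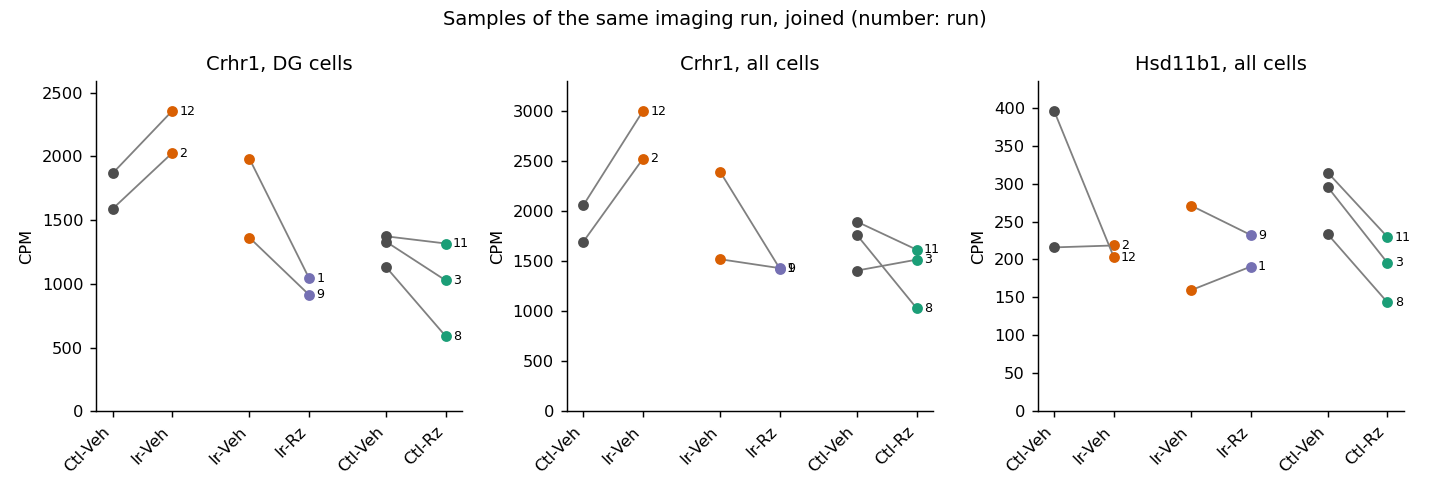
CPM of samples of the same imaging run, joined by a line and marked with the run number, for Crhr1 in DG cells (left), Crhr1 in all cells (middle) and Hsd11b1 in all cells (right); each panel holds 3 comparisons from left to right. DG Crhr1 is lower in the RZ sample in all 5 runs that hold one, as are 4.71% of all genes, whereas all-cell Crhr1 is level in run 9 (−0.087) and higher with RZ in run 3 (0.11).

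Whether RZ acted differently in irradiated and control mice was tested as an interaction. Over all cells it was −0.38 ± 0.44 for Crhr1, 0.57 ± 0.45 for Hsd11b1, 0.46 ± 0.56 for Crh and 0.21 ± 0.48 for Crhbp (edgeR adjusted p = 0.998 for each), and for DG Crhr1 it was −0.39 ± 0.47. The share of genes called was 0%, with 3 at an unadjusted p under 0.05 over all cells. The Ir-Veh samples enter both the radiation comparison and the irradiated RZ comparison, and the Ctl-Veh samples enter both the radiation comparison and the control RZ comparison, so opposite signs between them, as for Crhr1 at 0.42 and −0.72, are not separate evidence.

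**Figure D5:**
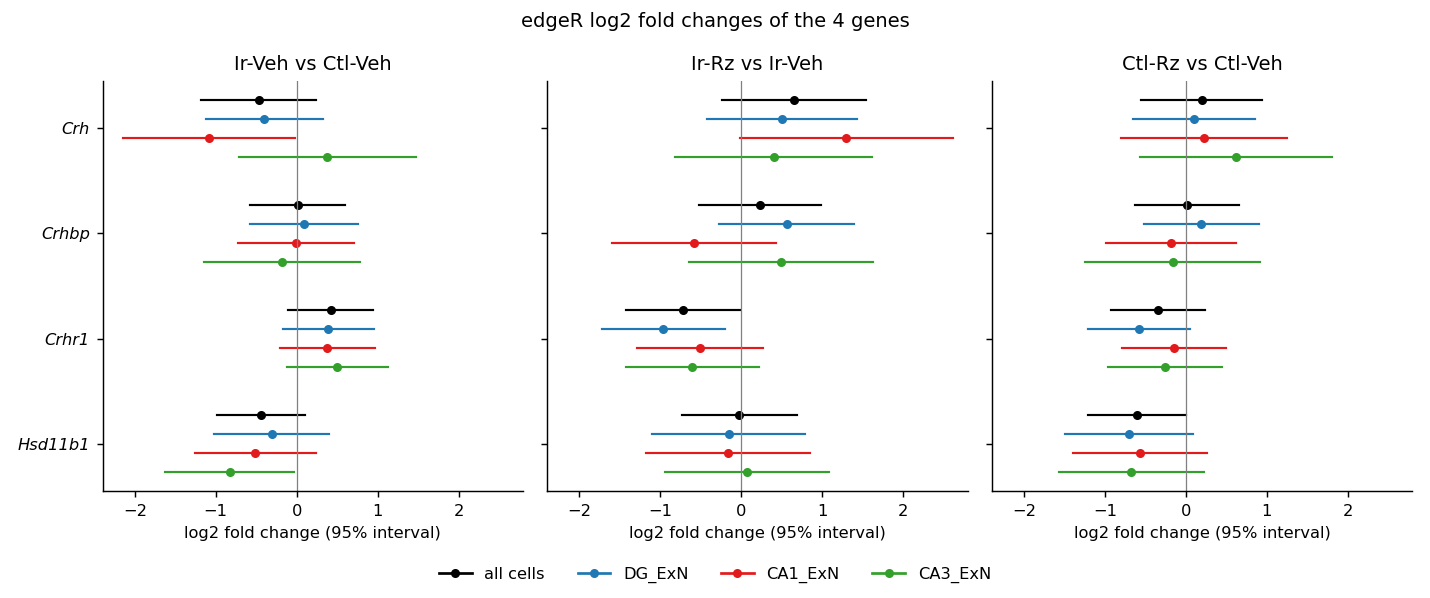
edgeR log2 differences with 95% intervals for the 4 genes in 3 comparisons, over all cells and in DG, CA1 and CA3. The Crhr1 points are all right of 0 for Ir-Veh against Ctl-Veh and all left of 0 for both RZ comparisons; the interval of DG Crhr1 in Ir-Rz against Ir-Veh runs from −1.73 to −0.20, and the 4 genes passed no test after adjustment.

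More genes differed by imaging run than by group. Given the group, the run terms were called by edgeR for 108 of 255 genes (42.4%), and for 45 without Ir-Veh 9, Ir-Rz 1 or Ir-Rz 9, 50 without Ir-Veh 1 and 71 without Ir-Veh 2. The group terms, given the run, were called for 0 genes, with 8 at an unadjusted p under 0.05, and for 2 without Ctl-Veh 3 or Ctl-Rz 3. The 4 members were not among the genes called by run, with adjusted p of 0.0624 for Crhbp, 0.120 for Crh, 0.280 for Hsd11b1 and 0.317 for Crhr1. The share of a sample's counts that lay in genes under 0.2 counts per cell was 3.24% to 5.38%, and it was highest in run 9, at 5.38% for Ir-Veh 9 and 5.23% for Ir-Rz 9. The highest Crhbp level of Ir-Veh and that of Ir-Rz were both in run 9, at 260 and 250 CPM.

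Of the wider stress hormone axis little was in the table, which held no gene later in the alphabet than Kcnj8. Of 27 listed genes of the CRH and glucocorticoid axis the 4 members were measured, and of 26 glucocorticoid-responsive genes 3 were: Bcl6, a transcriptional repressor, Egln3, an oxygen-sensing hydroxylase, and Agt, the precursor of angiotensin. Of 32 genes on the path from CRHR1 through calcium, CaM kinases and CREB, 11 were measured. In all 3 comparisons 0 of these 14 passed. In Ir-Veh against Ctl-Veh, 0 of the 3 responsive genes and 5 of the 11 signalling genes were higher, with medians of −0.27 and −0.0088, beside 135 of 255 genes and a median of 0.022 overall. In Ir-Rz against Ir-Veh 2 of 3 and 4 of 11 were higher (medians 0.26 and −0.16; all genes 122 of 255 and −0.019), and in Ctl-Rz against Ctl-Veh 1 of 3 and 3 of 11 (medians −0.19 and −0.11; all genes 128 of 255 and 0.0053).

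Among these genes, Bdnf, the growth factor gene that CREB induces, had the smallest p of the signalling list in both comparisons of irradiated mice. It was −0.40 ± 0.25 in Ir-Veh against Ctl-Veh and 0.52 ± 0.32 in Ir-Rz against Ir-Veh, comparisons that share the Ir-Veh samples. Egln3 was 0.75 ± 0.32 in Ctl-Rz against Ctl-Veh (edgeR adjusted p = 0.989), the one gene of both lists with an unadjusted p under 0.05 in these comparisons. Bcl6 was −0.52 ± 0.35 and the AP-1 gene Fosl2 −0.42 ± 0.37 in Ir-Rz against Ir-Veh, and Creb1, which encodes CREB itself, was 0.60 ± 0.36 in Ctl-Rz against Ctl-Veh. By field, Camk4, which encodes a kinase that activates CREB, shared the order of Hsd11b1, at 0.409 counts per DG cell, 1.45 per CA1 cell and 2.93 per CA3 cell. Fos shared the order of Crhr1, at 0.226, 0.9997 and 0.559. Creb1 was sparse in all 3, at 0.0664, 0.0730 and 0.0987.

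Likeness over the 42 profiles of sample and class was measured as Pearson's r of log2 CPM and given without a test, since the profiles share samples, runs and depth. Among the genes most like Crhr1 were Htr1f, a serotonin receptor gene (0.68), and Cpne5, a copine gene (0.68). For Hsd11b1 they were Cckbr (0.62), Camk4 (0.62) and the chemokine receptor gene Cxcr4 (0.55). For Crhbp they were Fn1, the fibronectin gene (0.62), Aph1b (0.56) and Enpp2 (0.52), and for Crh they were Gng2 (0.51), Creb1 (0.45) and Erbb4 (0.44). Crh and Crhr1 had an r of −0.60 over the same profiles, and Crh and Crhbp 0.33.

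Over the 14 samples, after the group means were taken off, the neighbours were different genes. Crhr1 went with Dnm1 (0.81), Camk4 (0.74) and Grin2b (0.72), genes of synaptic vesicle retrieval, calcium signalling and the NMDA receptor. Hsd11b1 went with Cd9 (0.81), Adarb2 (0.80) and Cdh12 (0.79). Crhbp went with the complement gene C4b (0.80), Id4 (0.74) and Glp2r (0.73), and Crh went with Grin2c (0.78), Glp2r (0.71) and Cbln4 (0.68). These correlations were picked as the highest over all other genes, and the samples share imaging runs.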

How the data were processed

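Transcripts of the hippocampus were counted by MERFISH on a MERSCOPE instrument, and cells were outlined with a custom Cellpose pipeline, per the labels. The deposited table held raw counts per cell, as its header states, with no normalization by the authors; the deposited cell table gave other columns, namely the sample, assay number, Leiden cluster, class, position and volume of each cell, the last without a stated unit, and total counts. Software versions and cell filters are not given in the sources used. The 255 genes used here held 55.9% to 59.2% of the deposited total counts of a sample. All 4 members matched RefSeq names of mouse genes, and 0 cell IDs were shared between samples.

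Per sample, counts were summed over all its cells and over each class with 20 or more cells, and were tested with edgeR 4.0.16 (R 4.3.3, limma 3.58.1) by the two-sided quasi-likelihood test, with TMM scaling, filterByExpr, all 14 samples in 1 model of group, and Benjamini-Hochberg adjustment over all genes tested, called at 0.05. The TMM factors over all cells were 0.864 to 1.24. CPM of single genes by sample and group use the TMM factors of that level, and those by class use the factors of the 42 profiles. CPM by cluster, by Gja1 count, of summed marker lists and in cells that held a member are plain. Correlations used a prior count of 2. The procedure was tested on simulated counts drawn without an imaging-run effect, so that test does not cover the run differences seen here. Clusters, classes and cell sets are described without a test. Sample totals and counts limit precision, and intervals cover the spread between samples.

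Samples of 1 run deviated together: the correlation of their deviations from the group means was 0.298 to 0.671 in the 7 runs, so the run number pairs them, and a fit with the run as a block was an alternative. As other alternatives, DESeq2 1.42.0 was run, and edgeR was run with plain library sizes, with cell numbers in their place, without the filter on low genes, on the compared groups alone, without cluster 3 cells and without each sample in turn, and limma-voom with the run as a random effect. Cells without a Gja1 count and low-abundance genes as the library size were added after seeing the data. The members and lists were chosen with earlier results of these data known. The genes named besides the 4 members were the 3 most correlated with each (1 of which is not reported here), the 2 of each pathway list with the smallest p in a comparison, and markers; the genes given for the DG cells rich in Crhr1, and the by-field levels of Camk4, Fos and Creb1, were chosen after their values were seen.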

Additional observations from a re-analysis of the deposited data

How the results depend on the processing

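The members passed no test in any alternative, and the smallest adjusted p over all of them was 0.184, for DG Crhr1 in Ir-Rz against Ir-Veh with the run as a random effect (log2 −0.78). Of 64 log2 differences (4 genes, 4 levels, 3 comparisons and the interaction), 47 kept their sign in every alternative, and 30 of 611 fits that kept all samples and 37 of 896 that left out 1 sample changed a sign. The count of genes called was 0 except with the run as a random effect, which called 1 in Ctl-Rz against Ctl-Veh over all cells and 2 in DG, and without Ir-Rz 9, which called 1 in Ir-Rz against Ir-Veh in CA3 (range 0 to 1). The compared groups alone were not fitted for the interaction, which uses all 4, and Crh in CA1 could not be fitted in that setting for Ir-Veh against Ctl-Veh, where the filter removed it.

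With the imaging run as a replicate block, which changed no call, signs turned for Crhbp in Ir-Veh against Ctl-Veh (−0.23 over all cells, −0.20 in DG), for Hsd11b1 in Ir-Rz against Ir-Veh (0.017 and 0.19), for Crh in Ctl-Rz against Ctl-Veh in DG (−0.0048), and in the interaction for Crhbp over all cells (−0.014), Crhr1 in CA1 (0.0085) and Crh in CA3 (0.040). As a random effect the run gave −0.10 and −0.012 for that Crhbp pair, 0.012 and 0.20 for that Hsd11b1 pair and 0.18 for Crh in the CA3 interaction.

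Other signs turned in the following settings. Crhbp in Ir-Veh against Ctl-Veh was −0.0017 with DESeq2 over all cells, and in CA1 it was 0.028 by library size alone, 0.084 without cluster 3 and 0.17 in cells without Gja1. Hsd11b1 in Ir-Rz against Ir-Veh was 0.079 by library size alone and 0.35 by number of cells over all cells, 0.030 and 0.17 by number of cells in DG and CA1, and in CA3 −0.0049 without a filter, −0.027 without cluster 3, −0.13 without Gja1 cells and −0.056 on low-abundance genes. Crhbp was −0.0088 in Ir-Rz against Ir-Veh and −0.033 in the interaction without Gja1 cells, −0.055 in Ctl-Rz against Ctl-Veh on low-abundance genes, and 0.060 there in CA3 by library size alone. Crh in the CA3 interaction was 0.10 by number of cells.

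Leaving out 1 sample, signs changed within these ranges: Crhbp in Ir-Veh against Ctl-Veh −0.22 to 0.21 over all cells, −0.089 to 0.26 in DG, −0.33 to 0.23 in CA1 and −0.53 to 0.19 in CA3; Hsd11b1 in Ir-Rz against Ir-Veh −0.16 to 0.12, −0.43 to 0.15, −0.33 to 0.18 and −0.31 to 0.38 at the same levels. Crhbp was −0.0044 to 0.47 in Ir-Rz against Ir-Veh, −0.076 to 0.17 in Ctl-Rz against Ctl-Veh and −0.021 to 0.45 in the interaction over all cells, and −0.46 to 0.076 in Ctl-Rz against Ctl-Veh in CA3. In Ctl-Rz against Ctl-Veh, Crh was −0.035 to 0.33 in DG and −0.087 to 0.56 in CA1, and Crhr1 was −0.26 to 0.031 in CA1. Crh in the CA3 interaction was −0.60 to 0.096. The number of genes called by run given group was 45 to 160; it fell to 45 without Ir-Veh 9, Ir-Rz 1 or Ir-Rz 9, to 50 without Ir-Veh 1 and to 71 without Ir-Veh 2.

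Between classes, CPM in place of counts per cell gave Crh a log2 ratio of −0.47 for CA1 over DG and −0.34 for CA3 over DG, and Crhr1 0.84 and 0.49. Per volume the Crh ratio for CA1 over DG was −0.030, and without cluster 3 it was −0.022. For shares of cells, thinning to 100 counts gave CA1 over DG as −0.26 for Crh, −0.52 for Crhbp and 0.36 for Hsd11b1, CA3 over DG as −0.36 for Crh, and CA3 over CA1 as −0.11 for Crh and 0.13 for Crhr1. Thinning to 200 gave CA1 over DG as −0.29 for Crh, 0.21 for Crhbp, 0.56 for Crhr1 and −0.092 for Hsd11b1, CA3 over DG as 0.51 for Crhr1 and CA3 over CA1 as −0.15 for Crhbp. The cause of these changes was not tested. Depth limits Crh, Crhbp and Hsd11b1 most: in CA3 a sample held 1 to 11 counts of Crh, 1 to 16 of Crhbp and 8 to 33 of Hsd11b1.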
